A study of Mus musculus with 2 samples.

Results

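Expression of the BMP, activin and TGF-beta pathway was examined in the cervical loop (CL) of the mouse lower incisor, the growing end of the tooth that holds the dental epithelial stem cells. The 45 genes of the pathway set were found by their symbols in the annotation of the array, which named 43 of them through 72 probes. Fstl3 and Smad7 were not found there and were not analysed here. The whole array named 16593 genes. At least 1 probe was detected for 36 of the 43 genes, and the text below gives the values of these 36. A probe was called detected where its detection p-value, a measure of how far it lies above the negative control probes, was under 0.01 on at least 1 array.

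The study removed Med1, a subunit of the Mediator coactivator complex, from epithelia. KO mice were MED1 fl/fl K14Cre, in which Cre recombinase under the keratin 14 promoter deletes floxed Med1, and the WT littermates were MED1 fl/fl without Cre. Both genotypes were on the C57BL/6 background, carried the floxed alleles and were sampled at 10 weeks of age. There was 1 WT and 1 KO sample, each combining microdissected tissue of 3 mice, and each with 1 column of intensities from an Illumina bead array, called an array here. The design text gives n = 3 per genotype, and the sources used here do not state how many arrays lie behind each column. The label names the CL, whereas the general dissection note speaks of hair-generating tissue in KO and its equivalent in WT. Keratin 14-driven deletion is limited to epithelial cells, so the Med1 gene stays intact in the mesenchyme, vessels, nerves and blood cells of the same tissue. With 1 sample per genotype no test was possible, and every difference below describes these 2 arrays without an error between animals.

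Ligands of this family bind as dimers to complexes of type I and type II serine/threonine kinase receptors. BMP ligands lead to phosphorylation of SMAD1 and SMAD5, activins and TGF-betas to that of SMAD2 and SMAD3, and both groups share SMAD4 to enter the nucleus and act on target genes, among which the Id genes are well-known responders to BMP. Secreted antagonists bind the ligands outside the cell. In the continuously growing mouse incisor, BMP4, activin and FGFs of the mesenchyme take part in the control of the epithelial stem cells. Follistatin opposes activin on the lingual side, where enamel is not formed.

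Of the 36 detected genes, none was higher on the KO array by 1.5-fold or more and 1, Bmper, was lower by that much, against 1.78% and 2.24% of all 8378 detected genes. One gene in 36 is close to the share among all genes, so the count itself does not set the pathway apart. None passed 2-fold, beside 0.143% of all detected genes higher and 0.251% lower. In these counts a gene detected on 1 array was held to a bound set by the detection limit of the other array. By measured ratio Inhbb was 2.10-fold lower and Ltbp2 1.57-fold higher. The median ratio, KO minus WT on the log2 scale after background correction and quantile normalization, was 0.08 over the 36 genes and 0.00 over all detected genes. The ratio lay above 0 for 22 genes and below 0 for 14, whereas 50.1% of all detected genes lay above 0. A probe detected on 1 array leans by selection towards that array, which holds for Bmp2, Ltbp1 and Ltbp2 above 0 and Inhbb below. Among the 32 genes detected on both arrays 19 were above 0 and 13 below, and the median over the 36 with bounds was 0.06. As a guide to measurement error only, pairs of probes were taken for 1781 other genes, 2 for each gene, which gave an SD of 0.22 log2 units per probe. That spread holds no variation between animals. Within it lay 26 of the 36 genes, beside 62.4% of all detected genes. The genes outside it on the low side were Bmper, Inhbb, Tgfbr3, Smad3 and Smad5, and those on the high side were Tgfb2, Bmpr1a, Id2 and Smad6, with Ltbp2 there by a measured ratio only, since its bound is 0. Inhbb, with a bound of -0.51, was outside it by either value in this normalization.

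The direction of the small ratios rests on the normalization. Before normalization 26 of the 36 genes had a lower intensity in KO than in WT, as had 67.8% of all detected genes, and 12 of the 22 genes above 0 were among them. When the arrays were instead scaled to a common median, the median ratio of all detected genes moved to -0.13 and that of the pathway genes to -0.04, with 12 genes above 0 and 24 below. Relative to all detected genes, 22 of the 36 lay above their median under either scaling.

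**Figure D1:**
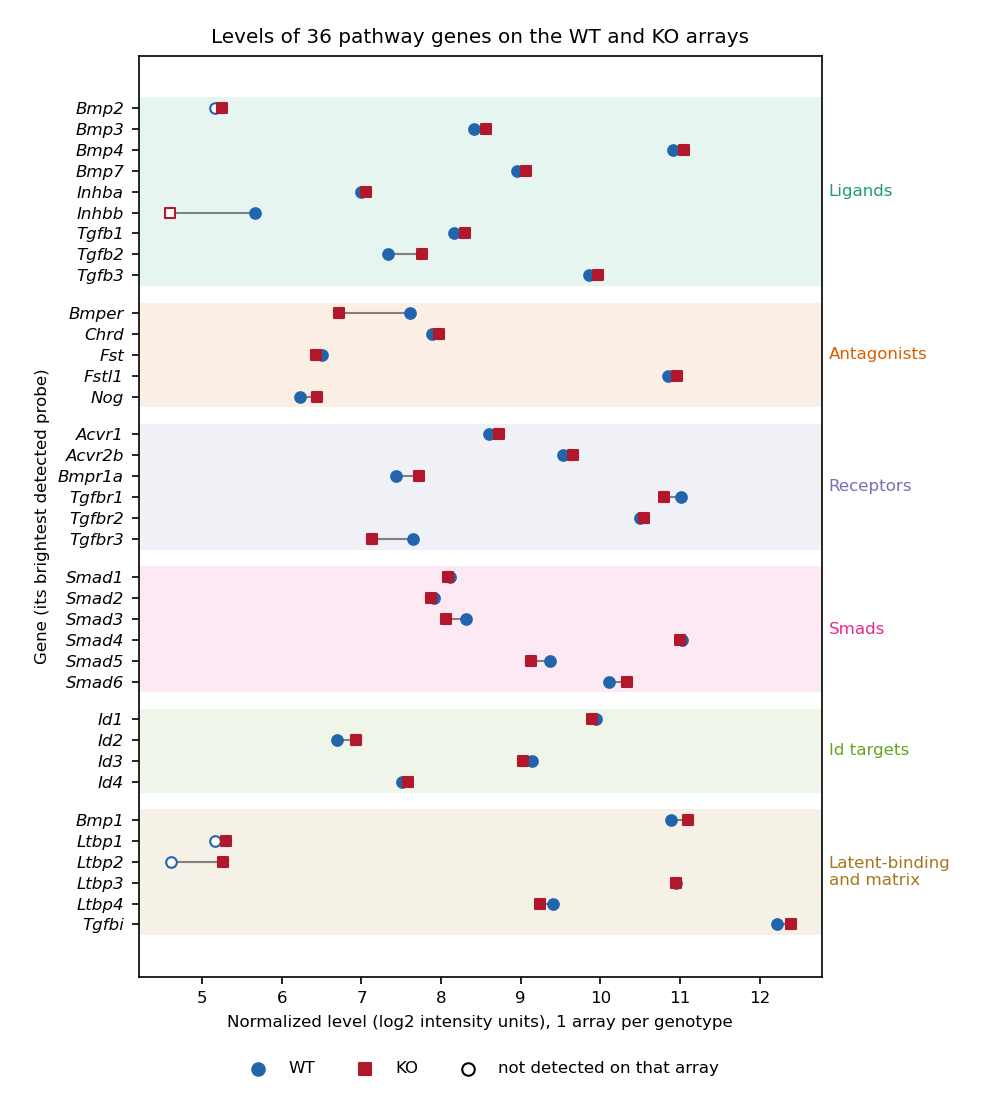
Normalized level (log2 intensity units, x axis) of each of the 36 detected genes on the WT array (blue circles) and the KO array (red squares), from the brightest detected probe, with open symbols where the probe was not detected on that array. The 2 symbols nearly coincide for most genes and lie farthest apart for Inhbb and Bmper; levels of different genes come from different probes and cannot be set against each other.

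Among the ligands, Tgfb2 was higher on the KO array, and Inhbb was lower by a dim probe that only the WT array detected. The other detected ligands differed by less than 0.16 log2 units. Of the 11 ligand genes, all on the array, 9 were detected, 8 with a ratio above 0 and 1 below, and the median was 0.12. Above 0 lay 50.1% of all detected genes. Bmp2, above 0, and Inhbb, below, were each detected on 1 array, and the 7 ligands detected on both were above 0. Of the 8 above 0, 5 had a lower intensity in KO before normalization. With median scaling 4 of the 9 ligands were above 0 and their median was -0.02, or 0.11 above that of all detected genes. None passed 1.5-fold in either direction when probes detected on 1 array were held to their bound.

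Inhbb encodes the beta B subunit, which forms activin B. Its only probe read 136.2 intensity units in WT and 110.3 in KO before normalization, with detection p-values of 0.0025 and 0.13. It was therefore detected in WT and not in KO. The normalized log2 levels were 5.66 and 4.59. Since the KO value lies under the detection limit, the difference was held to a bound of 1.42-fold lower in KO. That bound belongs to this normalization and leaves out the error of the dim WT reading. In the authors' normalized values, which keep the background signal, the ratio was -0.33, a smaller difference than the bound. Inhba, which encodes the beta A subunit of activin A, had log2 levels of 6.997 in WT and 7.06 in KO, a ratio of 0.07. Inhba thus lay near no difference. The lower Inhbb value came from a single dim probe kept only through the WT array, where it is higher, so it does not set the 2 subunit genes apart.

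Tgfb2 encodes one of the 3 TGF-beta ligands. It read 253.1 in WT and 293.7 in KO before normalization, and its log2 levels of 7.34 and 7.76 give a 1.34-fold higher level in KO. Counted with bounds, this ratio of 0.43 was exceeded or equalled by 375 of the 8378 genes, or 4.48%. The ratio was the highest among pathway genes detected on both arrays. It stayed between 0.29 and 0.43 under the alternatives run. The other TGF-beta genes did not share it. Tgfb1 had log2 levels of 8.16 and 8.31, and Tgfb3 of 9.86 and 9.97, ratios of 0.14 and 0.12 that both lay within the probe spread.

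Bmp4, a BMP ligand gene of dental mesenchyme, had a log2 level of 10.91 in WT and 11.05 in KO, a ratio of 0.14. Its intensity before normalization was slightly lower in KO, at 2075 against 2135. Bmp7 had log2 levels of 8.96 and 9.07, and Bmp3, an atypical member that opposes other BMPs, of 8.41 and 8.56. The ratios were 0.11 and 0.16, so these BMP genes differed by no more than 2 probes of a gene commonly do. With median scaling Bmp4, Bmp7, Inhba and Tgfb3 fell to between -0.05 and -0.02, while Bmp3 and Tgfb1 stayed at 0.01 and 0.00. Bmp2 was detected in KO only, with p-values of 0.011 in WT and 0.0063 in KO and log2 levels of 5.16 and 5.24, which allows no fold. Bmp5 and Bmp6 were not detected on either array, although Bmp5 came close in WT with a p-value of 0.013.

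Among the secreted antagonists Bmper stood out as lower on the KO array, while the others lay within the probe spread. Of 8 genes 7 were on the array and 5 were detected, 3 above 0 and 2 below, with a median of 0.08. With median scaling the median was -0.06, which is 0.07 above that of all detected genes.

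Bmper encodes a secreted BMP-binding protein with cysteine-rich domains like those of chordin, which can hold BMPs back or aid their signalling depending on its amount, and which was named for its presence in endothelial precursors. Its probe read 289.2 in WT and 188.8 in KO before normalization and was detected on both arrays. The log2 levels were 7.61 and 6.72, a 1.85-fold lower level in KO with a ratio of -0.89. Counted with bounds, 36 of the 8378 genes, or 0.43%, had a ratio this low or lower. The gene has no other probe on the array. The ratio was -0.55 in the authors' normalized values and -1.001 with median scaling, so the direction held while the size, and with it the 1.5-fold limit, depended on the processing. Of 11 detected endothelial markers 9 were below 0, beside 49.7% of all detected genes, with a median of -0.16, and 6 of them lay within the probe spread and 1 was past 1.5-fold. Their summed normalized intensity was 7558 in WT and 6184 in KO. All 11 of these markers on the array were detected, Pecam1 and Cdh5 among them. Of 8 detected smooth muscle and pericyte markers 7 were below 0, with a median of -0.23 and 1 past 1.5-fold, and Cnn1 and Lmod1 were not detected. Their sums of 16021 in WT and 11726 in KO were mostly Acta2, and without it they were 1957 and 1637. Schwann cell and nerve markers had a median of -0.46, with 4 of 5 detected markers below 0 and sums of 1857 and 1421, and S100b and Mal were not detected. The part of these cells in the Bmper difference was not tested. In a whole tissue, fewer cells of a type and less RNA per cell cannot be told apart.

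Chrd, which encodes the BMP antagonist chordin, had log2 levels of 7.89 in WT and 7.97 in KO. Nog, which encodes the antagonist noggin, had 6.23 and 6.44, and Fst, which encodes the activin antagonist follistatin, 6.50 and 6.42. The ratios were 0.08, 0.21 and -0.08, none as wide as the probe spread. Fstl1, a follistatin-like secreted glycoprotein gene, had log2 levels of 10.86 and 10.96. With median scaling Chrd and Fstl1 changed sign, to -0.04 and -0.06. Grem1, which encodes the BMP antagonist gremlin, lay just short of detection in WT with a p-value of 0.011 and far from it in KO at 0.68, and neither of the 2 probes of Chrdl1 was detected on either array.

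The bases before the start sites of Bmper, Inhbb and Tgfb2 are printed here. Among the ligand and antagonist genes these were the 3 outside the probe spread in this normalization, with Bmper lower and Tgfb2 higher in KO. The lower Inhbb value came from a dim probe detected in WT only, which leans by selection towards WT. The 250 bases upstream of each RefSeq start (build GRCm38.p6) are given 5′ to 3′ on the strand of the gene, at chr9:23222826-23223075, plus strand for Bmper, chr1:119422249-119422498, minus strand for Inhbb and chr1:186705990-186706239, minus strand for Tgfb2. Both strands were searched for CAGAC, a short Smad-binding sequence, GTCTAGAC, its palindromic form, GGCGCC, a GC-rich sequence bound by BMP-activated Smads, and TATAAA, the TATA box, and matches are in capitals. None of these motifs contains another.
Bmper: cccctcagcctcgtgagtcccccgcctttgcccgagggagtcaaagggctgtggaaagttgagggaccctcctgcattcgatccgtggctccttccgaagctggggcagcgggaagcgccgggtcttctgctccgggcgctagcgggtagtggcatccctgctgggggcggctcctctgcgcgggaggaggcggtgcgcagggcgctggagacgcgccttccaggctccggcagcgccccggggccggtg
Inhbb: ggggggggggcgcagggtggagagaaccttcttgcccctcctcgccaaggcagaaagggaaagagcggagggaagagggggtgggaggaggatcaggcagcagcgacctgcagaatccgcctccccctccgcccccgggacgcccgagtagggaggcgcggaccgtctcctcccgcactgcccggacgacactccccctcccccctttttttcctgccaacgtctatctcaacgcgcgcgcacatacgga
Tgfb2: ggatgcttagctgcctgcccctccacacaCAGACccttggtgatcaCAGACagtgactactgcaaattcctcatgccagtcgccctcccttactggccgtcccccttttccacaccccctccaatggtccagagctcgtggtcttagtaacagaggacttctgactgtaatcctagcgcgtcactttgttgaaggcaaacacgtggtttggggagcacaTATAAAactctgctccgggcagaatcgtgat
Only the Tgfb2 sequence held a match, with CAGAC at 221 and 204 bases before the start and TATAAA at 31 bases before it. Its GC content was 53.6%, that of Bmper 71.6% and that of Inhbb 68.0%, beside a median of 52.4% over all 32851 promoters of the table. CAGAC was found in 42.2% of all these promoters and TATAAA in 12.4%, so such matches are common. The table held promoters for 32 of the 45 genes, 40 in all and with a median GC content of 65.4%. Of these 40, 45.0% held CAGAC, 27.5% held GGCGCC (9.59% of all promoters), 10.0% held TATAAA and none held GTCTAGAC (0.167% of all). The 10 genes with GGCGCC included Id2, Id4, Smad5, Tgfbi and Chrd. These matches are a description of the letters and not binding sites.

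**Figure D2:**
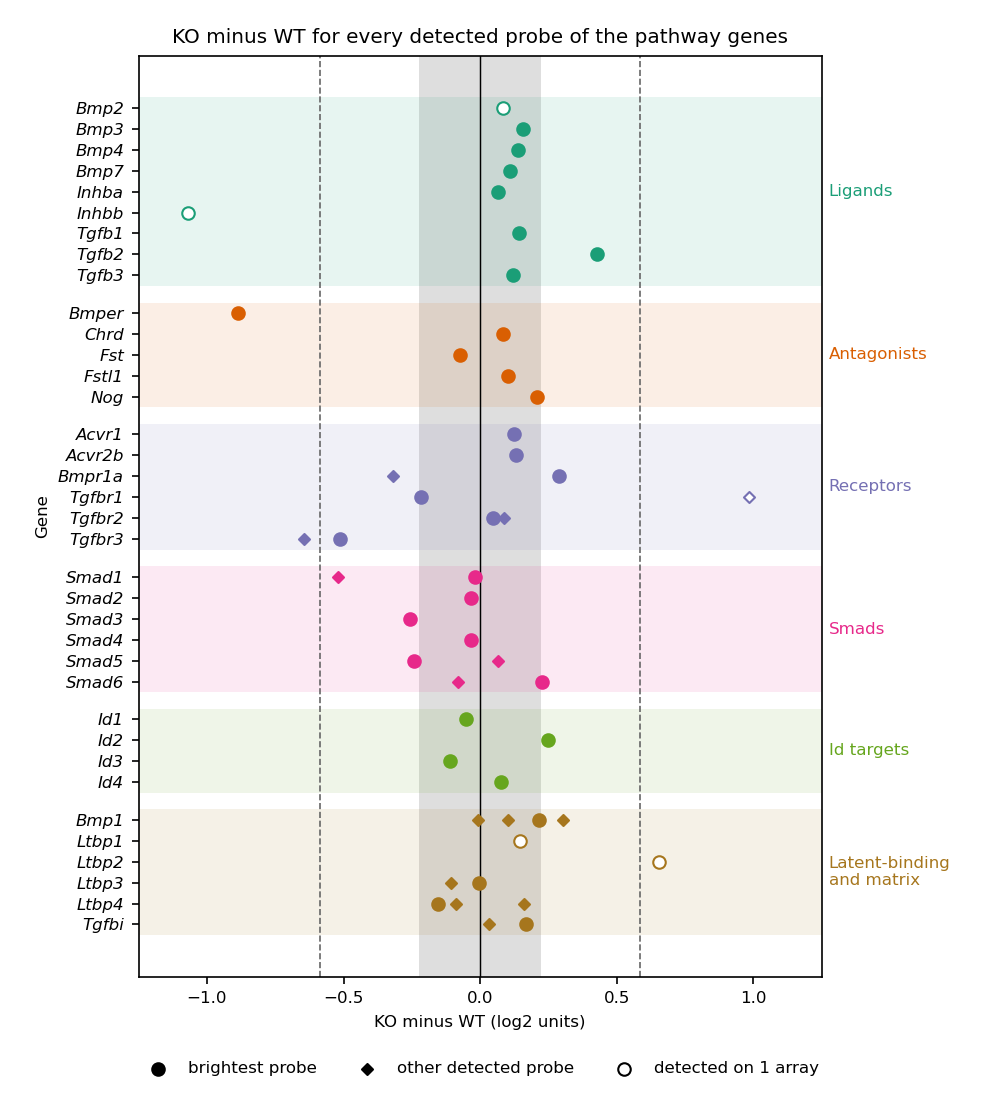
KO minus WT in log2 units for every detected probe of the 36 genes, grouped by role, with large circles for the brightest probe of a gene, small diamonds for its other probes and open symbols for probes detected on 1 array. The grey band is 1 SD between probes of a gene (0.22) and the dashed lines mark 1.5-fold. Bmper lies past the lower line and both Tgfbr3 probes lie near it, while the 2 Bmpr1a probes fall on opposite sides of 0. Open symbols show measured ratios without bounds, so those of Inhbb, Ltbp2 and Tgfbr1 also lie past a line.

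Among the receptors, Tgfbr3 was lower on the KO array in both of its probes, and no other receptor gene showed a difference shared by its detected probes beyond the probe spread. All 9 receptor genes were on the array and 6 were detected, 4 above 0 and 2 below, with a median of 0.09. With median scaling 1 of 6 was above 0 and the median was -0.07, or 0.06 above that of all detected genes. Bmpr2, the type II receptor gene for BMPs, Acvr2a, a type II receptor gene for activins, and Bmpr1b, a type I BMP receptor gene, were not detected with any of their 7 probes together.

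Tgfbr3 encodes betaglycan, a membrane proteoglycan that presents TGF-beta ligands, TGF-beta 2 above all, to the signalling receptors and that binds inhibin. Its brighter probe read 295.0 in WT and 222.5 in KO before normalization, with log2 levels of 7.65 and 7.14, a 1.43-fold lower level in KO. Its other probe read 142.7 and 123.6, with log2 levels of 5.82 and 5.17, 1.56-fold lower. In KO this dimmer probe lay just inside the detection limit, with a detection p-value of 0.0088. The ratios of -0.51 and -0.64 differ by 0.13, less than the median of 0.19 between 2 probes of other genes. They were -0.34 and -0.22 in the authors' normalized values. Counted by probe, 2 of the 50 detected probes of the pathway were lower by 1.5-fold or more, those of Bmper and the dimmer one of Tgfbr3, against 2.17% of all detected probes, and none was higher, against 1.81%. The brighter probe passed 1.5-fold only with median scaling, at -0.63. The part of the endothelial, smooth muscle and Schwann cell markers given with Bmper in the Tgfbr3 difference was not tested.

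The signalling receptors for TGF-beta lay closer to no difference. Tgfbr1, the type I receptor gene, had log2 levels of 11.02 in WT and 10.80 in KO in its brightest probe, a ratio of -0.21. A second probe of the gene was detected in KO only, at 5.24 against 4.26 in WT, which allows no fold, and the other 2 probes were not detected. Averaging the brightest and this dim probe turned the ratio to 0.39. Tgfbr2, the type II receptor gene, had log2 levels of 10.50 and 10.54 in 1 probe and 5.44 and 5.53 in another, ratios of 0.05 and 0.09. With median scaling the brighter Tgfbr2 probe lay at -0.11, close to the median of all detected genes.

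Bmpr1a, which encodes the type I BMP receptor needed for normal differentiation of ameloblasts, gave opposite readings in its 2 probes. One had log2 levels of 7.43 in WT and 7.72 in KO, the other 7.35 and 7.03, and both were detected on both arrays. The ratios of 0.29 and -0.32 differ by 0.61, just under 0.64, the 95th percentile of the difference between 2 probes of other genes, so the direction for this gene is not settled by the array. Acvr1, a type I receptor gene used by BMPs and activin A, had log2 levels of 8.60 and 8.72, and Acvr2b, a type II receptor gene for activins, 9.53 and 9.66. Their ratios of 0.13 and 0.13 became -0.01 and -0.03 with median scaling.

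The Smad genes were mostly slightly lower on the KO array, with 5 of the 6 detected genes below 0 and a median of -0.03, beside 49.7% of all detected genes below 0. The same 5 genes were below 0 in every alternative run, although with median scaling the class median of -0.18 was only 0.05 under that of all detected genes. Smad3, activated by TGF-beta and activin receptors, had log2 levels of 8.32 in WT and 8.06 in KO, and its ratio of -0.26 was the lowest of the class. Its partner Smad2 had 7.91 and 7.87, a ratio of -0.03. Smad4, the shared partner, had 11.03 and 11.00, a ratio of -0.03 as well.

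The BMP-activated Smads depended on the probe. Smad1 had log2 levels of 8.11 in WT and 8.09 in KO in 1 probe and 8.05 and 7.53 in another of like brightness, ratios of -0.02 and -0.52. Smad5 had 9.37 and 9.13 in 1 probe and 9.12 and 9.19 in another, ratios of -0.24 and 0.07. Both genes therefore had a probe near no difference beside a lower one. Smad6, which encodes an inhibitory Smad induced by BMP, was the only member of the class above 0. Its bright probe had log2 levels of 10.10 and 10.33 and its dimmer probe 7.54 and 7.46, ratios of 0.22 and -0.08. Of the 10 pathway genes with at least 2 probes detected on both arrays, 5 had probes of opposite sign, beside 41.7% of the 1781 other genes.

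The Id genes, which encode inhibitors of basic helix-loop-helix transcription factors and are induced by BMP in many cells, showed no common direction. All 4 were detected on both arrays, 2 above 0 and 2 below, with a median of 0.01 that became -0.12 with median scaling, 0.01 above that of all detected genes. Id1 had log2 levels of 9.95 in WT and 9.90 in KO, and Id3 of 9.14 and 9.03, ratios of -0.05 and -0.11. Id4 had 7.51 and 7.58, a ratio of 0.08 that became -0.03 with median scaling. Id2 had 6.69 and 6.94 in the probe that was detected, a 1.19-fold higher level, and its other probe was not detected. The widest Id ratio, 0.25 for Id2, was little more than the spread between probes, and no Id gene differed by 1.5-fold.

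The latent-binding and matrix genes were likewise close to no difference wherever both arrays detected them. All 6 were detected, 4 above 0 and 2 below. Their median was 0.16 with measured ratios and 0.02 when the genes detected on 1 array were held to their bounds. Tgfbi, which encodes a TGF-beta-induced adhesion protein of the extracellular matrix, had log2 levels of 12.22 in WT and 12.39 in KO in its bright probe and 9.81 and 9.85 in the other. Bmp1, a metalloproteinase gene whose product trims procollagens and cleaves chordin, was read by 4 probes with ratios of 0.22, -0.01, 0.10 and 0.30 from the brightest to the dimmest. Neither gene reached 1.5-fold in any probe.

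LTBP proteins are components of microfibrils, and most of them, LTBP2 being the exception, bind latent TGF-beta. Ltbp3 had log2 levels of 10.95 in WT and 10.95 in KO, with a second probe at a ratio of -0.11. Ltbp4 was read by 3 probes with ratios of -0.15, 0.16 and -0.09, on both sides of 0. Ltbp1 had 1 of 6 probes detected, in KO only, with log2 levels of 5.15 and 5.30 and a bound of 1.03-fold higher. Ltbp2 was also detected in KO only, with p-values of 0.11 in WT and 0.0050 in KO and log2 levels of 4.60 and 5.26. Its measured ratio of 0.65 lies below the detection limit on the WT side and allows no fold, and it was 0.19 in the authors' normalized values. The 2 LTBP genes that were detected on both arrays thus differed by less than the probe spread, and those of low signal carry no usable size.

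**Figure D3:**
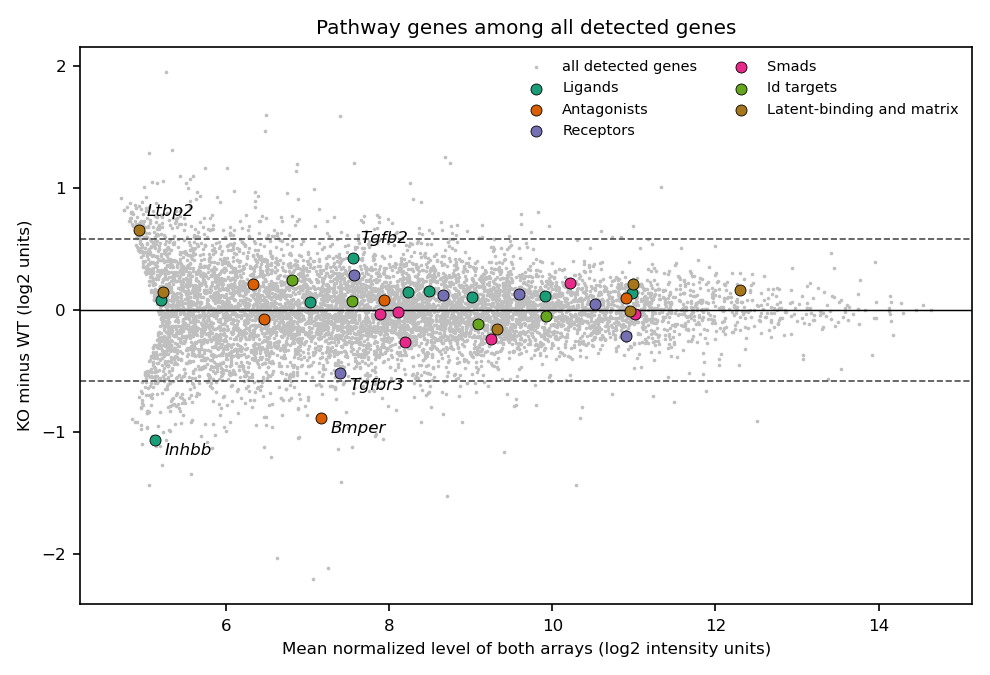
KO minus WT (log2 units, y axis) against the mean normalized level of both arrays (log2 intensity units, x axis) for all 8378 detected genes (grey) and the 36 pathway genes, coloured by role. Dashed lines mark 1.5-fold; the grey cloud widens towards dim genes, and most pathway genes lie near its centre, with Bmper below the lower line and Inhbb and Ltbp2 at the dim end where 1 array did not detect them.

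Further genes of the pathway, listed with the members' results known, were read in the same way. Of 110 such genes 96 were on the array and 54 were detected, 22 above 0 and 32 below, with a median of -0.05. Counted with bounds, none was higher by 1.5-fold or more and 2 were lower, Gdf10 and Ccn2, beside 1.78% and 2.24% of all detected genes. This count too is near the share among all genes. Below 0 lay 49.7% of all detected genes. Gdf10 encodes a ligand of this family close to Bmp3 and had log2 levels of 7.04 in WT and 6.31 in KO, 1.65-fold lower, with a ratio of -0.39 in the authors' normalized values. Ccn2, also called Ctgf, encodes a matricellular protein commonly induced by TGF-beta and had log2 levels of 11.87 and 11.11, a ratio of -0.76. Ccn2 had been singled out in earlier work on these samples, so its direction is not independent evidence.

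The 6 detected other ligands had a median of -0.06 and the 9 detected other antagonists one of -0.08, with 7 of the 9 below 0. Sostdc1, a BMP and Wnt antagonist gene of the tooth, had log2 levels of 10.50 in WT and 10.17 in KO, and Dcn, the gene for the TGF-beta-binding proteoglycan decorin, 11.73 and 12.25. Their ratios of -0.33 and 0.52 lie on opposite sides of 0. Of the other receptors 3 were detected, all below 0, among them Rgma, a BMP co-receptor gene detected in WT only with a bound of 0.57 log2 units lower. The 14 detected Smad partners and regulators had a median of 0.06, or 0.02 with bounds, and reached from -0.26 to 0.34. The highest, Pmepa1, was detected in KO only with a bound of 0, which allows no fold. Among those detected on both arrays the highest was Strap at 0.28. The 8 detected genes of latent TGF-beta activation had a median of -0.04, with Itgb6, the gene for the epithelial integrin subunit that releases TGF-beta, at 9.30 in WT and 9.69 in KO, a ratio of 0.40.

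The 14 detected target genes of the pathway were evenly split, 7 above 0 and 7 below, with a median of -0.04, and 3 of them lay within the probe spread, beside 62.4% of all detected genes. The list was drawn up with results of these data known, and Sox9, like Ccn2, had been named as lower in the earlier work. Below 0 were Ccn2, Tagln at -0.58, Acta2 at -0.48, Timp1 at -0.29, Sox9 at -0.25, Snai1 at -0.13 and Tsc22d1 at -0.07. Tagln and Acta2 are contractile genes that also stand in the smooth muscle list given with Bmper. Above 0 were the BMP-responsive homeobox genes Msx1 and Msx2 at 0.30 and 0.35, Hey1 at 0.35, the cell cycle inhibitor genes Cdkn1a and Cdkn2b at 0.32 and 0.52, the matrix gene Tnc at 0.23 and Col1a1 at 0.00. None of these but Ccn2 passed 1.5-fold. Immediate-early genes, which are induced within minutes of a stimulus, were mostly lower in KO, with a median of -0.38. Of 12 detected markers 8 were below 0, beside 49.7% of all detected genes. Past 2-fold lower were 4, Fos at -2.11, Egr1, Ccn1 at -1.41 and Dusp1 at -1.17, beside 0.251% of all detected genes. Egr2, Klf2, Klf4 and Klf6 lay above 0. The summed normalized intensities of the 12 were 6426 in WT and 3993 in KO. Fosb, Ier2, Atf3, Btg2 and Nr4a1 were not detected. Egr1 of this list, at -1.43, and the CCN family, to which Ccn1 belongs, had likewise been named as lower in the earlier work. The part of the immediate-early genes in the Ccn2 value was not tested.

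The labels and the tissue were checked once. Med1 had log2 levels of 7.28 in WT and 6.48 in KO in the 1 of its 4 probes that was detected, a ratio of -0.80, and whether that probe lies in the deleted exons is not known here. Of 13 dental epithelial markers on the array 12 were detected, Krt14, Amelx and Ambn among them, with a median of -0.08, and the stem cell marker Sox2 was not. Of the 12, 8 lay below 0 and 3 above, and 1 was past 1.5-fold, Shh at -0.67. Dental mesenchymal markers had a median of 0.06 over 11 detected genes, with 1 past 1.5-fold, Vim at 0.60. Odontoblast and osteoblast markers had a median of 0.12, with 5 of 6 detected markers above 0, while Dspp and Dmp1 were not detected. Their sums of 25615 in WT and 30202 in KO were mostly Bglap2, at a ratio of 0.39, whereas Bglap, not in the list, lay at 0.04. Skeletal muscle markers had a median of 0.32, with 8 of 10 detected markers above 0, sums of 2387 and 2745 and Myh4 not detected. Ckm, above 0, was detected in KO only. Of 3 detected erythroid markers 2 were below 0, with a median of -0.37 and Hbb-b2 and Epb42 not detected. Their sums of 18008 and 14065 were nearly all Hba-a1. Neutrophil markers were higher in KO, with 11 of 12 detected markers above 0, beside 50.1% of all detected genes. Elane, Chil3 and Il1b among them were detected in KO only and so lean by selection towards KO. The neutrophil median was 0.99, or 0.95 with bounds, and the sums were 3195 in WT and 6294 in KO. Mmp8, Cxcr2 and Csf3r were not detected. The part of all these cell types in the pathway values was not tested.

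**Figure D4:**
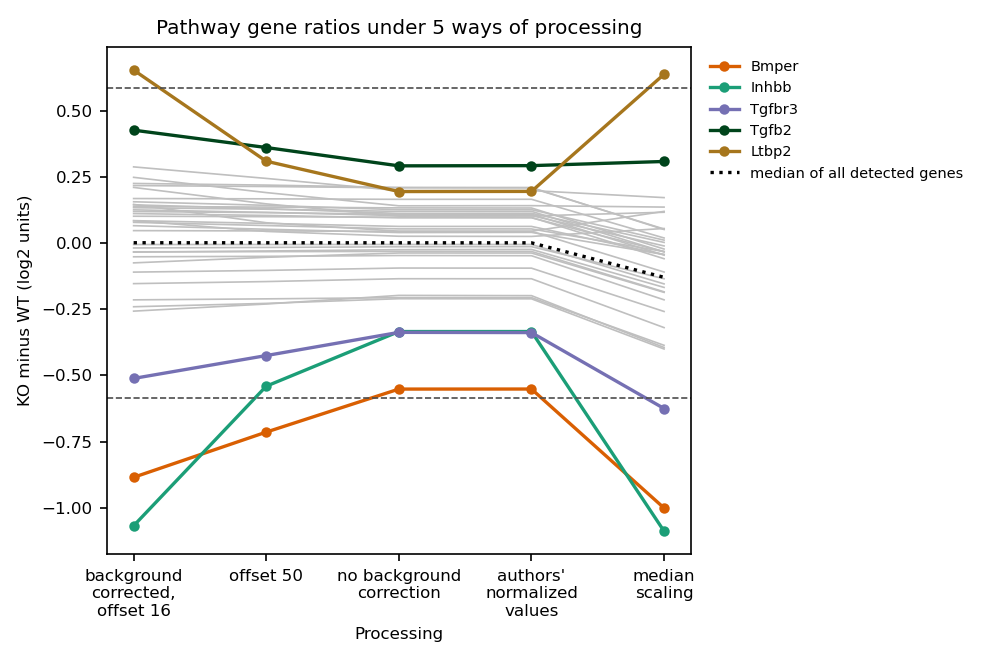
KO minus WT (log2 units) of the 36 genes under 5 ways of processing, with 5 genes coloured, the others in grey and the median of all detected genes dotted. Bmper, Inhbb and Tgfbr3 stay below 0 and Tgfb2 and Ltbp2 above 0 throughout; ratios of dim probes such as Inhbb and Ltbp2 shrink most where the background signal is kept, and median scaling lowers all ratios, with the dotted line at -0.13.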

How the data were processed

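RNA of the CL was hybridized to Illumina MouseRef-8 v2 bead arrays, which the authors read in GenomeStudio (version not given). They deposited linear intensity values without background subtraction or normalization, and with them a detection p-value per probe. The p-value columns carry no sample name, and each was used with the intensity column it follows (Spearman -0.976 in both, -0.883 with the other). Intensity values that the authors had normalized served as an alternative. Values were corrected and quantile-normalized with neqc of limma 3.58.1 in R 4.3.3, the negative controls being inferred from the detection p-values and an offset of 16 added before log2. A detection p under 0.01 on either array kept 11742 of 25697 probes, and the detected probe with the highest mean level stood for its gene. Where only 1 array detected a probe, its ratio was bounded by the higher of the undetected value and the lowest detected level of that array (5.26 in WT, 5.15 in KO). Such a bound belongs to this normalization and leaves out the error of the detected reading. Median intensities were 112.4 (WT) and 115.7 (KO), and precision is limited by the single intensity column of each genotype. The platform annotation gave 1 symbol to 23978 probes and none to 1719. The files name no genome build, so only the RefSeq promoters have coordinates.

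Groups came from the sample titles. With 1 sample in each no test was run, and changes were counted at 1.5-fold, the fold that the study used for its pathway analysis. The normalization was tried on simulated data in which large fold changes were given only to probes brighter than those of Bmper, Tgfbr3, Tgfb2 and Inhbb. That trial does not cover dim probes or small ratios. Alternatives were no background correction, an offset of 50, median scaling, the authors' normalized values, a detection p under 0.05, detection on both arrays, no detection filter and the mean over probes. The members and lists were chosen with earlier results of these data known. All detected members were named. Among further pathway genes those past 1.5-fold were named by rule, and the others are examples picked with their values in view.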

Additional observations from a re-analysis of the deposited data

How the results depend on the processing

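The number of pathway genes lower in KO by 1.5-fold or more was 1 (Bmper) in the values reported. It was 0 without background correction and 0 in the authors' normalized values, where Bmper lay at -0.55. It was 2 of 36 with median scaling (Bmper and Tgfbr3). With a detection p under 0.05 it was 2 of 38 (Bmper and Inhbb), beside 2.34% of all genes. Without a detection filter it was 3 of 43 (Bmper, Grem1 and Inhbb), beside 1.82%. The number higher was 1 without a detection filter (Ltbp2), beside 1.72% of all genes, and 0 in all other settings. No bounds were applied without the filter, and Grem1, Inhbb and Ltbp2 each had a reading under the detection limit. Settings that keep or add a constant signal draw the ratios of dim probes towards 0 by construction, and for the others the cause was not tested. Over all detected genes the share lower by 1.5-fold moved as well, from 2.24% to 0.43% in the authors' normalized values and 4.29% with median scaling, where the share higher was 0.87%. The medians of the pathway and of its classes all moved by less than the probe spread of 0.22, although that of the antagonists turned to -0.08 without a detection filter. Of the 36 genes 24 kept the sign of their ratio in every setting run, 13 of them lower and 11 higher, and 10 changed sign with median scaling alone. The other 2, Bmpr1a and Tgfbr1, changed sign with the mean over probes. Bmper ranged from -1.001 to -0.55, Tgfbr3 from -0.63 to -0.34 and Tgfb2 from 0.29 to 0.43. Signal over background limits Inhbb, Ltbp2, Ltbp1 and Bmp2. No paired analysis was possible because the titles give no replicate number and no test was run.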
